A study of Mus musculus with 20 samples.

Results

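Ventricular RNA of 12 male mice was compared 4 weeks after transverse aortic constriction (TAC), a surgical narrowing of the aortic arch that exposes the left ventricle to pressure overload. The 6 TAC DKO and 6 TAC CTL arrays were selected by their titles from the 20 arrays of the series, and the other 8 came from sham-operated mice (4 CTL and 4 DKO) and are used only for values set beside those after TAC. All mice carried homozygous floxed alleles of both DNA methyltransferases, with loxP sites around exon 18 in *Dnmt3a* and around exon 19 in *Dnmt3b*, within the part that encodes the catalytic domain. The double knockout (DKO) mice also carried a Cre recombinase driven by the atrial myosin light chain promoter (*Myl7*), which is active in cardiomyocytes, whereas the control (CTL) mice had no Cre, so that an effect of Cre itself and of the deletion cannot be told apart. Surgery was done at 10 to 12 weeks of age and tissue was taken at 14 to 16 weeks, with 1 Illumina bead chip array per mouse. Other cells of the ventricle keep both genes, and a change in ventricular RNA does not tell fewer cells of a type from less RNA per cell.

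DNMT3A and DNMT3B are the enzymes that place new methyl groups on cytosines followed by guanine (CpG). Methylation of promoter CpG is known to go along with silencing, and genes of the germline, of imprinted loci and of other tissues are well known to be kept silent this way. The heart under pressure overload is known to grow, to shift its contractile and metabolic genes toward the fetal pattern, and to deposit collagen. The comparison addresses which of these gene functions differ between hearts with both genes targeted in cardiomyocytes and control hearts when both are overloaded. The authors found recombination in most, but not all, sorted cardiomyocyte nuclei of DKO hearts.

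The difference between the genotypes comprised few genes, most of them higher in DKO hearts. To be called, a probe needed a limma p under 0.05 after Benjamini-Hochberg adjustment and a fold change over 1.5. Of all probes, 47 of 45281 probes (0.104%) were higher and 5 (0.011%) lower in DKO hearts. The called probes named 35 genes with higher and 4 with lower expression, and another 9 called probes named no gene. Among called probes that name a gene, the highest log2 changes were those of the sodium/proton exchanger *Slc9a3* (2.45), the folate enzyme *Aldh1l1* (1.92), the calcium pump *Atp2a1* (1.83, with CTL at background) and slow skeletal troponin T *Tnnt1* (1.59), and 2 probes without a gene had 2.23 and 1.69. The genes called lower were *Lrtm1* (-1.86), *Nrn1* (-1.3), *Egf* (-0.85) and *Prr33* (-0.71). On the log2 scale the median of all probes was 0.00.

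For 41 of the 52 called probes the intensities of the 6 CTL and the 6 DKO arrays did not overlap, which held for 0.552% of all probes. Of the 47 probes called higher, 10 had a CTL mean at or below the background level of the arrays, as had 65.2% of all probes. The background level is the 95th percentile of 1506 probes for olfactory and vomeronasal receptors, genes of the nose, and had a mean of 66.7 intensity units. Folds of these probes are lower bounds against that level. The probe closest to the limit on the inner side was that of *Nrn1* (adjusted p = 0.0454). Just outside were *Irx3* (log2 change 0.86, adjusted p = 0.0585), *Pygl* (0.76, 0.0595) and *Epdr1* (-0.64, 0.0604).

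Some arrays stood apart within their group, which bears on the results that follow. On the first principal component (31.0% of the variance) the arrays fell into a first set of CTL 1 and 2 with DKO 1 to 4 and a second set of CTL 3 to 6 with DKO 5 and 6. No label says what distinguishes them, and the sets overlap with genotype only in part. The sets were divided by the sign of the score on this component. That 12.8% of probes differed between them at an adjusted p under 0.05 thus follows in part from how they were made. The background level was 68.3 to 71.4 in the first set and 64.1 to 65.0 in the second. With the set as a block in the fit, 45 probes were called higher and 5 lower. Of the 52 called probes, 45 were called again, and all 52 had the same sign within each set. The 52 were chosen for their difference on these same arrays, so this agreement is partly fixed by that choice. *Dhdh*, *Hyal1*, *Nrn1*, *Tmem108* and *Usp18* were among those not called with the block. The array TAC CTL 4 lay closer to the DKO arrays than the other controls did. On it 40 of the 52 called probes lay toward DKO from the mean of the other CTL arrays, by a median log2 value of 0.24, and in 29 of them it was the CTL array nearest to DKO, against 1 to 7 for each other CTL array. The same was measured on 57 probes called in the sham mice, a choice independent of these arrays, with 39 shifted toward DKO and 27 in which it was nearest. Without TAC CTL 4, 51 probes were higher and 5 lower. The markers of atrial muscle were high on TAC DKO 2 and 3, and without both arrays 39 probes were higher and 5 lower. The part of these array differences in the results was not tested beyond these values.

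**Figure D1:**
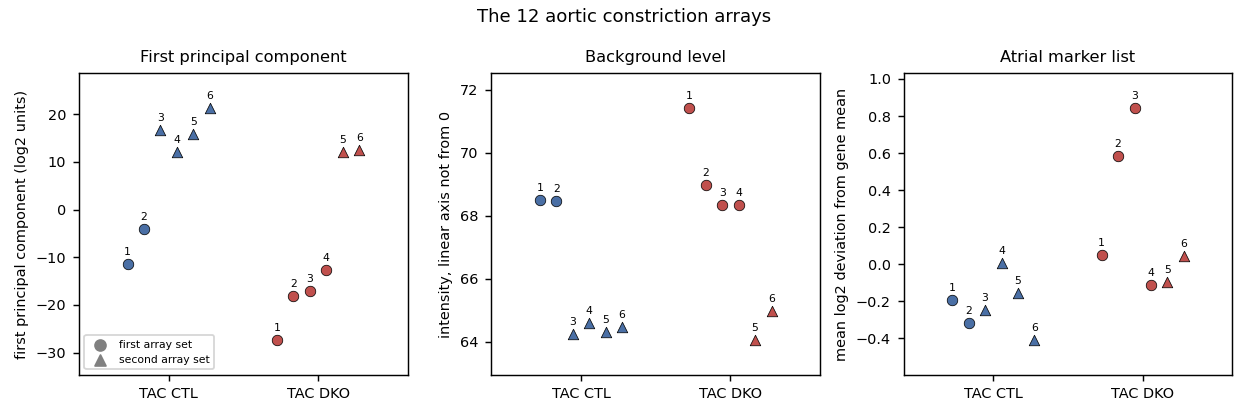
The 6 TAC CTL and 6 TAC DKO arrays, numbered by replicate, by their score on the first principal component, their background level in intensity units and the mean log2 deviation of the atrial marker list, with circles for the first and triangles for the second array set. The sets were divided by the sign of the score on the first panel, and their background levels are apart (68.3 to 71.4 against 64.1 to 65.0). TAC DKO 2 and 3 lie above the other arrays on the third panel.

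Promoter windows of 5 called genes, from the folate, epithelial, contractile and neuronal groups, are given here for the sequence context of genes that differ where CpG methyltransferases were deleted. They span 250 bases before to 50 bases after the transcription start (RefSeq, GRCm38.p6) and run 5′ to 3′ on the gene's strand, with each CpG in capitals. Methylation of these CpG was not measured on the arrays. By pyrosequencing of sorted cardiomyocyte nuclei from sham hearts, the authors found most tested promoter CpG of *Aldh1l1*, *Krt8* and *Slc9a3* less methylated in DKO. Whether those sites lie in the windows shown was not checked.
Aldh1l1: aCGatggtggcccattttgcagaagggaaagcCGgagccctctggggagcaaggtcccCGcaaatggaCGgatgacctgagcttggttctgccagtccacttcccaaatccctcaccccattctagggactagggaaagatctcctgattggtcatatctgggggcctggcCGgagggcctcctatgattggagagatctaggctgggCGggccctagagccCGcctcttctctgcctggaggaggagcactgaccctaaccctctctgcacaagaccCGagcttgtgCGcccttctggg
Slc9a3: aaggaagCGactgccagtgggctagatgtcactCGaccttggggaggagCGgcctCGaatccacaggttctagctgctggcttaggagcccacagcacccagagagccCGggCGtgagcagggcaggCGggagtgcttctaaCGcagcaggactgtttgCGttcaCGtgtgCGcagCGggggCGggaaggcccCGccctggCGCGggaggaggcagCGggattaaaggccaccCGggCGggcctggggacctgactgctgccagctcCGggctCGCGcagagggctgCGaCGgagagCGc
Krt8: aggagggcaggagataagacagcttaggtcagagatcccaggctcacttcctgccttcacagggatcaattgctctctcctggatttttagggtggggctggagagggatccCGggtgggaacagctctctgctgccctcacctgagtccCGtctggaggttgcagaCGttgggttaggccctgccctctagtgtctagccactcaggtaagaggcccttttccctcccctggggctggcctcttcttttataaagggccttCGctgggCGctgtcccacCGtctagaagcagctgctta
Tnnt1: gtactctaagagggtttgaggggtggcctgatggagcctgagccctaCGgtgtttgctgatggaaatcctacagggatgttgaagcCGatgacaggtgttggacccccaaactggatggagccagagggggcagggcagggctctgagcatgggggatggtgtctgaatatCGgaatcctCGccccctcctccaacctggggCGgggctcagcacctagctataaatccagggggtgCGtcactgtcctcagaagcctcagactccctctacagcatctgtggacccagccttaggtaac
Lrtm1: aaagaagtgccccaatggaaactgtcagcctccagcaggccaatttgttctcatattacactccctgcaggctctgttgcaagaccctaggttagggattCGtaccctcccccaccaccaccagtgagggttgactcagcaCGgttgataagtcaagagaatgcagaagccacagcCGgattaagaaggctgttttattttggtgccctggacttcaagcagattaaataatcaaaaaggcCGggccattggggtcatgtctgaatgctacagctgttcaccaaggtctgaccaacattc

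The window of *Aldh1l1* (chr6:90550543-90550842, plus strand) held 9 CpG, and 45.8% of all promoter windows in the table held at least as many. That of *Slc9a3* (chr13:74121163-74121462, plus strand) held 25, which 18.4% of all windows reached. *Krt8* (chr15:102004293-102004592, minus strand) and *Tnnt1* (chr7:4515926-4516225, minus strand) each had 6, a count reached by 56.4% of windows. *Lrtm1*, the gene that was lower in DKO hearts, had 4 (chr14:29017958-29018257, plus strand), as did or exceeded 68.6%. The motif counted was CG, which reads the same on both strands. A planned comparison of CpG content between called and other genes was void, because a window was at hand for only 26 of the 35 genes called higher (74.3%), under the 80% that such a comparison needs.

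The probes of the deleted genes were not called. The brightest *Dnmt3a* probe had intensities of 50.2, 57.1 and 58.7 in CTL and 52.3, 54.3 and 56.4 in DKO hearts (lowest, median and highest of 6, as in the values that follow), all below the background level. For the brightest *Dnmt3b* probe the values were 94.8, 103 and 114 in CTL and 98.3, 106 and 128 in DKO hearts, with a log2 change of 0.06 (standard error 0.07, adjusted p = 0.855). A second *Dnmt3b* probe had 47.1, 51.3 and 58.1 in CTL and 48.7, 54.5 and 61.9 in DKO hearts, all below the background level. These arrays therefore do not settle how strongly *Dnmt3a* or *Dnmt3b* is expressed. Whether these probes lie inside the deleted exons is not known, so they do not check the genotype.

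Among contractile genes, DKO hearts expressed more of 2 isoforms that are typical of skeletal muscle. *Tnnt1*, troponin T of slow skeletal fibres, had intensities of 445, 509 and 642 in CTL and 1112, 1529 and 2672 in DKO hearts. All DKO arrays lay above all CTL arrays, and the log2 change was 1.59 (standard error 0.16, adjusted p = 0.000107), a fold of 3.01. For *Atp2a1*, the calcium pump of fast skeletal muscle (SERCA1), the values were 60.7, 66.0 and 70.1 in CTL and 117, 192 and 731 in DKO hearts. The CTL arrays were at background, so the difference is at least 3.43-fold, and the log2 change was 1.83 (standard error 0.30, adjusted p = 0.0113). The array TAC DKO 2 was highest for both genes and gave 731 for *Atp2a1*. Without it, the log2 changes of *Atp2a1* and *Tnnt1* were 1.5 and 1.44. Of 24 skeletal muscle and slow-fibre genes measured, these 2 were called, and the list had a median log2 change of -0.01 against 0.00 over all genes. *Vgll2*, a cofactor that acts in skeletal muscle, had 53.4, 60.9 and 104 in CTL and 83.9, 145 and 287 in DKO hearts and was not called (log2 change 1.17, standard error 0.29, adjusted p = 0.159).

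None of the genes of the hypertrophy and fetal program was called. Atrial natriuretic peptide (*Nppa*) had 8300, 28484 and 32486 in CTL and 22211, 29822 and 30412 in DKO hearts. The low CTL value was on a single array, and the log2 change was 0.28 (standard error 0.25, adjusted p = 0.795). Its value of 32486 was the highest intensity of any probe on these arrays, so the scale leaves little room for a rise. The log2 changes were -0.18 (standard error 0.21, adjusted p = 0.85) for brain natriuretic peptide (*Nppb*), 0.30 (standard error 0.34, adjusted p = 0.85) for β-myosin heavy chain (*Myh7*) and -0.25 (standard error 0.17, adjusted p = 0.723) for its adult counterpart *Myh6*. Those of skeletal α-actin (*Acta1*) and of the cardiac calcium pump (*Atp2a2*) were -0.25 (standard error 0.13, adjusted p = 0.651) and -0.12 (standard error 0.09, adjusted p = 0.751). Of the 20 genes in the hypertrophy and fetal program 0 were called by limma, 0 were higher and 1 lower at an unadjusted p under 0.05. Over all 19057 genes, taking the brightest probe of each, 34 (0.178%) were called higher and 3 (0.0157%) lower, and 1083 (5.68%) were higher and 968 (5.08%) lower at an unadjusted p under 0.05. These are the shares against which the lists are read. Of 25 sarcomere and Z-disc genes 0 were called, with 1 higher and 2 lower at the unadjusted threshold. The hypertrophy and fetal list had a median of 0.01 after TAC and 0.22 in sham hearts, where 1 member was called. In sham hearts the log2 change of *Nppa* was 1.15 (standard error 0.34, adjusted p = 0.549) and was not called.

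Heat shock proteins and chaperones, which keep proteins folded, had mostly negative log2 changes in DKO hearts, without any called member. Their median log2 change was -0.13, 20 of 22 genes had a negative change, and 4 were lower and 0 higher at an unadjusted p under 0.05. *Hspb8*, a small heat shock protein, had 6280, 8351 and 10864 in CTL and 4852, 5494 and 6876 in DKO hearts, and its log2 change of -0.56 (standard error 0.12, adjusted p = 0.0673) did not pass. With the array set as a block the list median was -0.10, and in sham hearts it was 0.08. The atrophy, ubiquitin and autophagy list had a median of -0.13, with 1 gene higher and 1 lower of 17, and the 29 proteasome subunits one of -0.06, with 0 higher and 1 lower.

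Ion channel and membrane genes included 3 called genes of excitation. *Scn4b*, an auxiliary subunit of voltage-gated sodium channels, had 359, 459 and 587 in CTL and 681, 1090 and 1320 in DKO hearts. The groups did not overlap, and the log2 change was 1.19 (standard error 0.14, adjusted p = 0.000813). *Cacna1h*, the pore of a T-type calcium channel, had 131, 169.7 and 223 in CTL and 217, 360.0 and 518 in DKO hearts with overlapping groups and a log2 change of 1.02 (standard error 0.16, adjusted p = 0.00981). For *Bin1*, which shapes the membrane of T-tubules, the values were 103, 121 and 135 in CTL and 152, 192 and 251 in DKO hearts, without overlap (log2 change 0.67, standard error 0.11, adjusted p = 0.00984). Calls were made for 2 of 20 sodium and calcium channel genes and 1 of 26 calcium cycling genes, whereas 0 of 27 potassium channel genes were called by limma, with 4 higher and 1 lower at an unadjusted p under 0.05. *Abcc9*, the sulfonylurea receptor of the cardiac ATP-sensitive potassium channel, had 715, 923 and 1122 in CTL and 1102, 1209 and 1422 in DKO hearts and a log2 change of 0.46 (standard error 0.10, adjusted p = 0.0746). The list medians of all 6 excitation and membrane lists lay between -0.05 and 0.00.

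The largest rise of all named genes was that of a transporter known from kidney and gut. *Slc9a3* (NHE3), an exchanger of sodium for protons in epithelia, had 62.3, 88.1 and 172 in CTL and 310.3, 601 and 877 in DKO hearts. Its log2 change was 2.45 (standard error 0.25, adjusted p = 0.000112), a fold of 5.45. The spread within DKO hearts was wide, from 310.3 on array 2 to 877 on array 1. *Slc9a3* was the 1 called gene of 21 ion and solute transporters, whose median was -0.01. Of the 21, 2 were higher and 5 lower at an unadjusted p under 0.05, both without and with the array set as a block. *Krt8*, a keratin of simple epithelia, had 61.7, 64.3 and 89.4 in CTL and 156, 188 and 217 in DKO hearts. Among the CTL arrays only TAC CTL 4 (89.4) was above 70.2, still below every DKO array, and the log2 change was 1.43 (standard error 0.10, adjusted p = 5.15e-07). These were the 2 called of 32 simple epithelial genes, only 5 of which were above background, and the list median was 0.02. Epicardial and mesothelial markers, which also include *Krt8*, had a mean level of -0.16 to -0.06 on the CTL and 0.02 to 0.31 on the DKO arrays, with 3 of 12 higher at an unadjusted p under 0.05 and 4 of 12 above background. That mean includes the called *Krt8*, and the list median was 0.07 (0.02 with the array set as a block and -0.05 in sham). *Scgb1c1*, a secretoglobin of the respiratory and nasal lining, had 687, 1020 and 1183 in CTL and 1124, 2011 and 2575 in DKO hearts, with overlap and a log2 change of 0.98 (standard error 0.17, adjusted p = 0.0143).

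**Figure D2:**
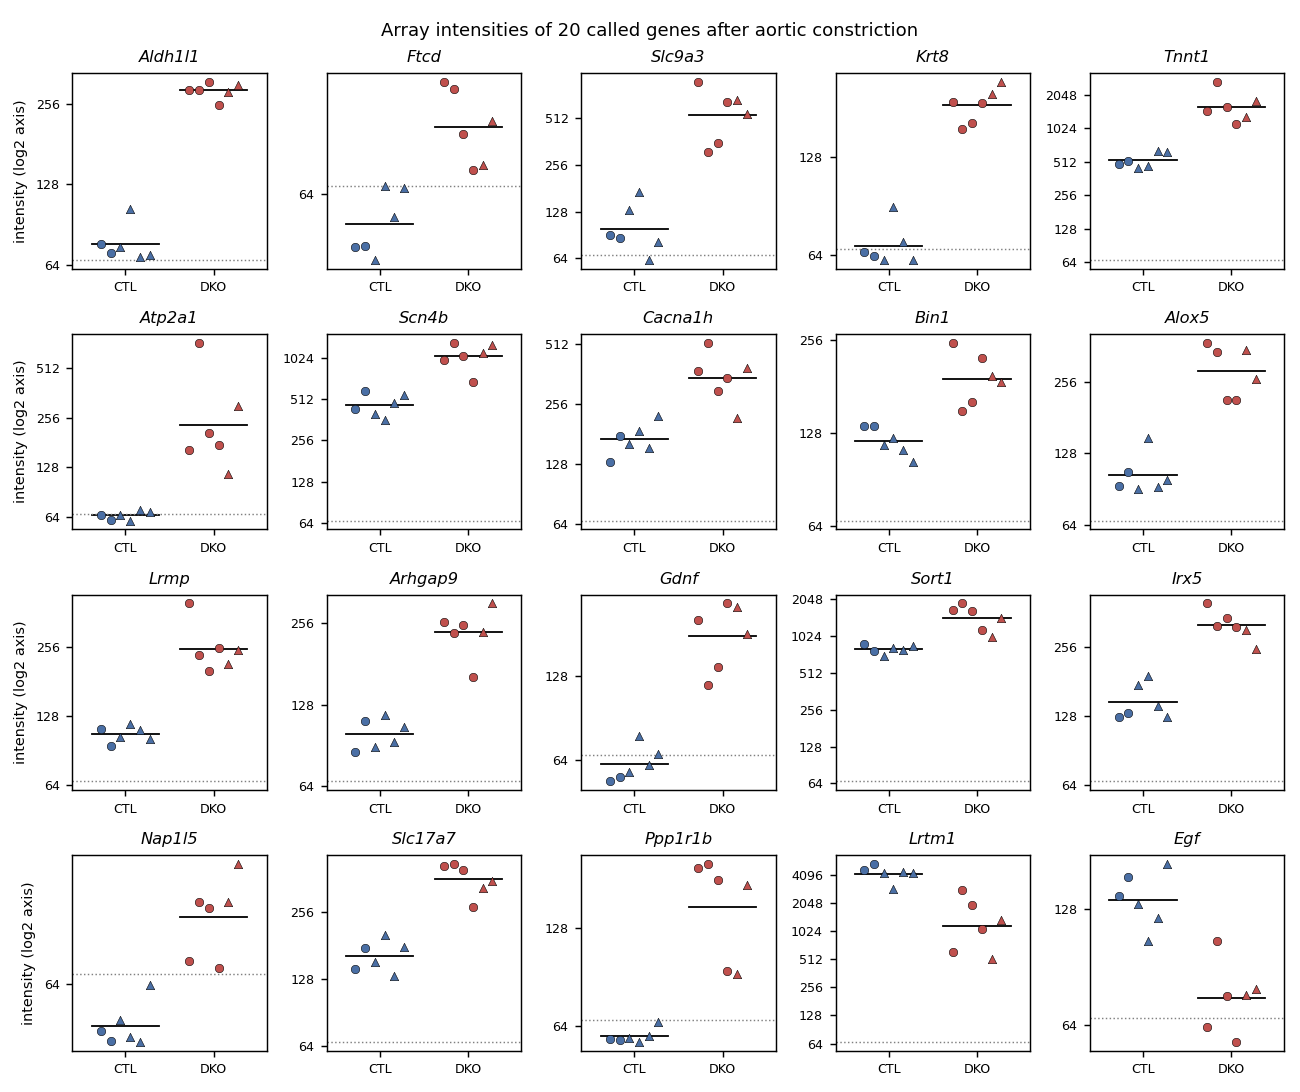
Intensities (log2 axis, a separate range for each gene) of 20 called genes on the 6 TAC CTL and 6 TAC DKO arrays, with a line at each geometric mean, a dotted line at the mean background level of 66.7, circles for the first and triangles for the second array set. The groups are apart for each gene shown except *Cacna1h*, and the CTL point nearest to DKO is TAC CTL 4 for *Aldh1l1*, *Krt8*, *Alox5* and *Lrtm1*.

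Folate metabolism held the gene with the smallest adjusted p. *Aldh1l1*, which oxidises 10-formyltetrahydrofolate in the cytosol, had 68.6, 72.8 and 103 in CTL and 256, 290.1 and 310.1 in DKO hearts. The DKO arrays were closely spaced, and 5 of the 6 CTL arrays lay between 68.6 and 76.6, the other being TAC CTL 4 at 103. The log2 change was 1.92 (standard error 0.09, adjusted p = 1.48e-09), a fold of 3.77. *Ftcd*, which passes a formimino group from histidine breakdown to folate, had 46.8, 53.7 and 66.6 in CTL and 71.9, 87.9 and 109 in DKO hearts. With CTL at background it was at least 1.33-fold higher (log2 change 0.67, standard error 0.11, adjusted p = 0.0166), and without TAC CTL 3 its adjusted p was 0.0556. Both belong to a list of 27 folate and one-carbon genes of which 2 were called higher and 0 lower, with a median of 0.05 and no other member at an unadjusted p under 0.05. *Auh*, an enzyme of mitochondrial leucine breakdown, had 65.3, 76.9 and 93.3 in CTL and 118, 133 and 147 in DKO hearts and a log2 change of 0.74 (standard error 0.09, adjusted p = 0.000655). It was the called gene among 25 of ketone body and branched-chain amino acid breakdown, of which another 4 were lower at an unadjusted p under 0.05.

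The energy-producing pathways of the heart had small negative medians, several of which were closer to 0 with the array set as a block. Of 23 glycolytic genes 0 were called by limma, 2 were higher and 7 lower at an unadjusted p under 0.05, and the median was -0.12. The median was -0.10 for 23 genes of the TCA cycle (0 higher and 3 lower), -0.07 for 38 of respiratory complexes II to V (0 and 3), -0.03 for 35 of complex I (0 and 2) and -0.05 for 31 of fatty acid uptake and oxidation (0 and 4). With the array set as a block these became -0.03, -0.06, -0.04, -0.03 and -0.02, and the numbers of genes lower at the unadjusted threshold 4, 2, 1, 1 and 1. The 40 genes of the mitochondrial ribosome had a median of -0.07 without and -0.06 with the block, and 32 of them were negative. *Mrpl20*, one of its proteins, had 501, 593 and 685 in CTL and 425, 470.4 and 503 in DKO hearts (log2 change -0.36, standard error 0.07, adjusted p = 0.0595). The glucose transporter *Slc2a1* had 345, 369 and 385 in CTL and 365, 463 and 574 in DKO hearts and a log2 change, positive where the list median was negative, of 0.33 (standard error 0.08, adjusted p = 0.16). The 40 cytosolic ribosome genes had a median of 0.01.

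**Figure D3:**
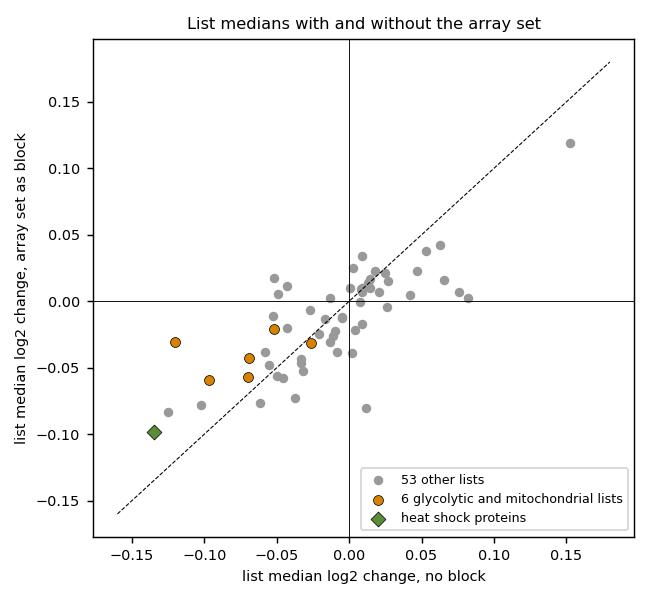
Median log2 change of DKO minus CTL hearts of each of 60 gene lists after TAC, without (x axis) and with (y axis) the array set as a block, and a dashed line where both are equal. The glycolysis list moves from -0.12 to -0.03 and the TCA cycle list from -0.10 to -0.06, and the heat shock list from -0.13 to -0.10.

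Genes known from leukocytes were called although leukocyte markers were not. *Alox5*, the first enzyme of leukotriene synthesis, had 90.9, 96.0 and 148 in CTL and 215, 303 and 375 in DKO hearts by its brightest probe, with no overlap and a log2 change of 1.47 (standard error 0.15, adjusted p = 0.000107). Its other called probes gave a log2 change of 1.12 and, with CTL at background, a difference of at least 1.53-fold, and it was the 1 called gene of 30 in leukotriene and prostaglandin synthesis. *Lrmp*, an endoplasmic reticulum protein of lymphoid cells, had 94.7, 108 and 118 in CTL and 201, 241 and 394 in DKO hearts (log2 change 1.23, standard error 0.12, adjusted p = 0.0001). For *Arhgap9* the values were 85.5, 99.3 and 117 in CTL and 161, 245 and 303 in DKO hearts (log2 change 1.25, standard error 0.12, adjusted p = 8.69e-05). *Skap2*, an adaptor of Src kinases, had 314, 383 and 541 in CTL and 605, 638 and 703 in DKO hearts, where TAC CTL 4 gave the highest CTL value (log2 change 0.72, standard error 0.09, adjusted p = 0.00154). These 3 were the called genes of 31 leukocyte-typical adaptors, whose median was 0.01. Of 22 leukocyte and macrophage markers, 12 of them above background, 0 were called by limma, 0 were higher and 1 lower at an unadjusted p under 0.05, and their mean level was -0.11 to 0.26 on the CTL and -0.09 to 0.09 on the DKO arrays.

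Of the other immune lists, 1 held a called gene. *Usp18*, which removes the ubiquitin-like modifier ISG15 and restrains interferon signalling, had 173, 190.5 and 227 in CTL and 223, 302 and 346 in DKO hearts, with overlap and a log2 change of 0.61 (standard error 0.10, adjusted p = 0.0091), and was not called without TAC CTL 2, TAC CTL 5, TAC DKO 3 or TAC DKO 4. It was called alone among 38 interferon response genes, whose other members at an unadjusted p under 0.05 were 3 that were lower. Antigen presentation had 0 of 23 genes called, 18 with a negative change and a median of -0.10 (-0.08 with the array set as a block). Complement and chemokines had 0 called of 26 and 38 genes. The chemokine *Cx3cl1* had a log2 change of -0.42 (standard error 0.11, adjusted p = 0.227) and the complement regulator *Cd59a* one of 0.35 (standard error 0.09, adjusted p = 0.16).

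Growth factor genes changed in both directions. *Gdnf*, a neurotrophic ligand of the RET receptor, had 53.8, 60.0 and 78.2 in CTL and 119, 191 and 232 in DKO hearts. With CTL at background it was at least 2.60-fold higher, with a log2 change of 1.52 (standard error 0.15, adjusted p = 8.69e-05). *Sort1*, a receptor of the trans-Golgi network that also binds pro-neurotrophins, had 704, 802 and 879 in CTL and 996, 1535 and 1883 in DKO hearts, without overlap. Its log2 change was 0.83 (standard error 0.12, adjusted p = 0.00578), and a second probe was called at 0.69, a call lost without TAC CTL 2, 3 or 4 or TAC DKO 1 or 3. *Nrn1*, neuritin, was lower with 284, 394 and 533 in CTL and 92, 141 and 307 in DKO hearts. TAC DKO 5 (307) lay within the CTL range, and its log2 change of -1.3 (standard error 0.26, adjusted p = 0.0454) failed the threshold when any of 10 of the 12 arrays was left out. Of 23 neurotrophic factors and receptors 2 were thus called higher and 1 lower. Epidermal growth factor (*Egf*) was lower, with 106, 135 and 167 in CTL and 57.9, 76.2 and 106 in DKO hearts. The CTL and DKO arrays met at 106 but did not overlap, and the log2 change was -0.85 (standard error 0.13, adjusted p = 0.00596). It was the 1 call among 35 genes of FGF, EGF and IGF signalling, of which 5 were higher and 2 lower at an unadjusted p under 0.05, with a median of 0.08 (0.01 with the array set as a block). *Fgfrl1*, a fibroblast growth factor receptor without a kinase domain that is on none of the lists, had 179.9, 205 and 223 in CTL and 278, 359 and 474 in DKO hearts and a log2 change of 0.80 (standard error 0.10, adjusted p = 0.00103). *Npr3*, the clearance receptor of natriuretic peptides, which was picked after its values were seen, had 92.9, 116 and 123 in CTL and 147, 166 and 222 in DKO hearts and a log2 change of 0.63 (standard error 0.10, adjusted p = 0.00934), which was not called without TAC CTL 5, TAC DKO 4 or TAC DKO 5.

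The matrix lists held no called gene. Of 20 collagens 0 were called by limma, with 0 higher and 0 lower at an unadjusted p under 0.05 and a median of -0.04. *Col1a1*, a chain of the main fibrillar collagen, had 344, 862 and 1058 in CTL and 373, 578 and 888 in DKO hearts (log2 change -0.22, standard error 0.27, adjusted p = 0.859). Connective tissue growth factor (*Ccn2*) had 3772, 5809 and 6665 in CTL and 3999, 5075 and 9895 in DKO hearts (log2 change -0.02, standard error 0.18, adjusted p = 0.987), and *Postn* was below background on all arrays. The mean collagen level spread within each genotype, from -0.42 to 0.32 on the CTL and -0.27 to 0.15 on the DKO arrays. Likewise 0 genes were called among 30 matricellular and proteoglycan genes, 22 metalloproteases and inhibitors, 33 TGF-beta superfamily genes (4 higher and 5 lower at an unadjusted p under 0.05), 41 Wnt genes (2 and 1) and 32 of vascular growth and hypoxia (3 and 6).

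Of 50 synaptic and neuronal genes, 2 were called higher and 2 lower by the brightest probe of each gene. The list was written with earlier results of these data known, so its number of calls cannot be ranked against those of other lists. *Slc17a7*, the vesicular glutamate transporter VGLUT1, had 132, 164 and 203 in CTL and 270.5, 375 and 423 in DKO hearts (log2 change 1.15, standard error 0.11, adjusted p = 0.000107). *Ppp1r1b* (DARPP-32), an inhibitor of protein phosphatase 1, had 57.2, 58.5 and 65.7 in CTL and 92.5, 176 and 200.5 in DKO hearts. The DKO arrays split into DKO 4 and 5 at 94.1 and 92.5 and the other 4 from 173 to 200.5, all above the CTL arrays. With CTL below background the difference was at least 2.25-fold, with a log2 change of 1.32 (standard error 0.17, adjusted p = 0.00154). *Lrtm1*, a transmembrane protein with leucine-rich repeats, had 2917, 4365 and 5375 in CTL and 513, 1216 and 2811 in DKO hearts. TAC CTL 4 (2917) and TAC DKO 2 (2811) nearly met, and the other CTL arrays were at 4309 or above. The log2 change was -1.86 (standard error 0.32, adjusted p = 0.0163) by the brighter and -1.96 (adjusted p = 0.00547) by the dimmer probe. The brighter probe failed the threshold without TAC CTL 3 or TAC CTL 5. *Nrn1*, described above, is also on this list. *Arpp21*, a phosphoprotein regulated by cyclic AMP, was called by a dimmer probe with 55.2, 59.1 and 70.6 in CTL and 89.9, 96.1 and 137 in DKO hearts (log2 change 0.73, standard error 0.10, adjusted p = 0.00177), at least 1.5-fold, while its brightest probe had 0.57. *Tmem108*, a membrane protein of neurons, had 72.9, 74.9 and 90.1 in CTL and 80.1, 136 and 154 in DKO hearts. Its log2 change was 0.66 (standard error 0.13, adjusted p = 0.045), and the call was lost when any of 10 of the 12 arrays was left out.

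Among developmental and epigenetic genes 2 were called. *Irx5*, a homeobox factor that patterns the repolarisation of the ventricle, had 126, 137 and 191 in CTL and 252, 315 and 395 in DKO hearts, with no overlap and a log2 change of 1.11 (standard error 0.11, adjusted p = 0.000107). It was the called gene of 129 homeobox and developmental transcription factors, of which 8 were higher and 7 lower at an unadjusted p under 0.05, and 21 were above background. *Nap1l5*, an imprinted gene expressed from the paternal allele, had 50.04, 51.8 and 63.8 in CTL and 68.5, 89.4 and 106 in DKO hearts, at least 1.29-fold higher with CTL below background (log2 change 0.66, standard error 0.10, adjusted p = 0.0043). Of 45 imprinted genes it alone was called, with 5 higher and 2 lower at the unadjusted threshold. Germline genes with methylated promoters had 0 of 37 called by limma, 4 higher and 1 lower at an unadjusted p under 0.05, and a median of 0.02. Only 6 of them were above background. *Mov10l1*, of the piRNA pathway, had 697, 736 and 937 in CTL and 827, 943 and 1181 in DKO hearts and a log2 change of 0.30 (standard error 0.09, adjusted p = 0.341). The DNA methylation machinery and the histone and chromatin modifiers had 0 of 18 and 0 of 36 genes called. *Mbd1*, a reader of methylated CpG, had a log2 change of -0.29 (standard error 0.08, adjusted p = 0.252). The core cardiac transcription factors had 0 of 32 called, with 4 higher and 4 lower at the unadjusted threshold.

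Lipid and glycan genes completed the calls that carry a known function. *Pigh*, a subunit of the enzyme that starts the glycosylphosphatidylinositol (GPI) anchor, had 86.7, 112 and 169 in CTL and 157, 359 and 443 in DKO hearts. TAC DKO 4 (157) lay below TAC CTL 6 (169), and the log2 change was 1.45 (standard error 0.22, adjusted p = 0.00596). A dimmer *Pigh* probe, with both group means above background, had a log2 change of 0.03 (standard error 0.07, adjusted p = 0.937) and was not called. *Pigz*, which adds a mannose to the anchor, had 87.2, 97.8 and 105 in CTL and 125, 156 and 181 in DKO hearts, without overlap (log2 change 0.68, standard error 0.08, adjusted p = 0.000311). The GPI list of 23 genes held *Pigh* as its 1 call, with 3 higher and 0 lower at an unadjusted p under 0.05 and a median of 0.05; *Pigz* is not on that list. *Cds1*, which makes CDP-diacylglycerol for phosphoinositides, had 183, 249.8 and 351 in CTL and 371, 394 and 535 in DKO hearts (log2 change 0.75, standard error 0.13, adjusted p = 0.0194). It failed the threshold without TAC CTL 3 or TAC CTL 5. The hyaluronan-degrading *Hyal1* had 75.8, 96.5 and 112 in CTL and 122, 149.5 and 190.5 in DKO hearts (log2 change 0.65, standard error 0.11, adjusted p = 0.0135). It was not called without TAC CTL 6 or TAC DKO 1. The remaining called genes outside the lists were the mRNA-decapping gene *Dcp1b* (log2 change 0.76), *Dhdh* (0.75), *Fam205c* and *Igsf23*, all higher, the last 2 at least 1.57-fold and 1.46-fold with CTL at background. *Dhdh* was lost when any of 10 arrays was left out and *Igsf23* without TAC CTL 5. *Prr33* was lower by a dimmer probe with 119.7, 131 and 182 in CTL and 65.8, 87.2 and 104 in DKO hearts (log2 change -0.71, standard error 0.12, adjusted p = 0.0113), while its brightest probe had 0.17 and was not called. The 9 called probes without a gene were all higher, with log2 changes of 0.59 to 2.23.

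**Figure D4:**
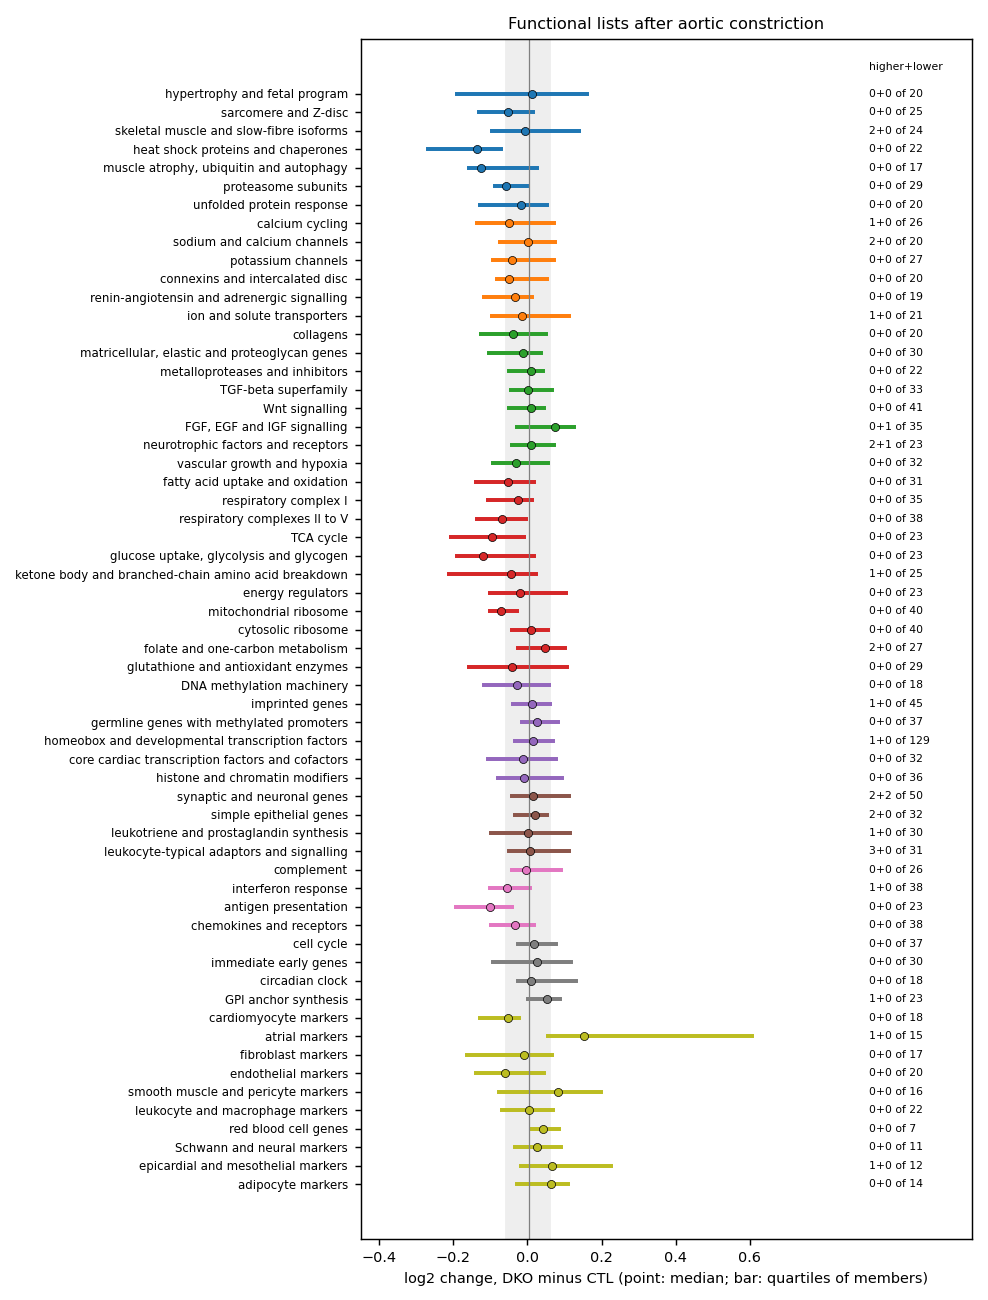
Median (point) and quartiles (bar) of the log2 change of DKO minus CTL hearts over the members of 60 gene lists, coloured by family, with the median and quartiles of all 19057 genes as a grey line and band, and at the right the number of members called higher and lower of those measured. List medians lie between -0.13 and 0.15, and 18 lists hold a called gene.

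Markers of cell types describe the RNA of the samples and do not measure the share of each cell type. All 18 cardiomyocyte markers were above background, as the ventricular label requires, with 0 called by limma, 1 higher and 2 lower at an unadjusted p under 0.05, and a median of -0.05. The 15 atrial markers had the highest median of all lists, 0.15, and 13 of them were positive, against 9802 of 19057 over all genes. At an unadjusted p under 0.05, 4 were higher and 0 lower (2 and 0 with the array set as a block). The list median was 0.12 with that block, 0.15 in the first and 0.07 in the second set alone, and 0.03 in sham. The mean level of the atrial markers was -0.41 to 0.01 on the CTL and -0.11 to 0.84 on the DKO arrays. The 1 call fell on *Stard10*, which carries phospholipids between membranes, with 90.9, 129 and 162 in CTL and 148, 229 and 343 in DKO hearts and a log2 change of 0.87 (standard error 0.17, adjusted p = 0.04), lost when any of 9 arrays was left out. The atrial light chain *Myl4* had 170.4, 219 and 849 in CTL and 319, 419 and 4700 in DKO hearts, and the highest values were 4700 on TAC DKO 3 and 1553 on TAC DKO 2. On the same arrays sarcolipin (*Sln*) was at 1092 and 390.1, against 47.1 to 66.1 on the other DKO arrays. The atrial light chain gene *Myl7* was at 162 on TAC DKO 3 and at 79.0 on TAC CTL 4, and below background on the other 10 arrays. Neither *Myl4* (log2 change 1.41, standard error 0.57, adjusted p = 0.525) nor *Sln* (1.18, standard error 0.61, adjusted p = 0.637) was called. The lists for fibroblasts (17 genes), endothelium (20), smooth muscle and pericytes (16), Schwann cells (11), adipocytes (14) and red blood cells (7) held 0 called genes by limma, with 2, 0, 4, 2, 0 and 1 higher and 1, 4, 0, 0, 1 and 0 lower at an unadjusted p under 0.05.

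Across all 60 lists, 18 held a called gene. The lists were written with earlier results of these data known and share some genes, so this number does not count separate functions. The 42 lists without a call, with 1039 genes, had 62 genes higher and 79 lower at an unadjusted p under 0.05. Over all 19057 genes 5.68% were higher and 5.08% lower at that threshold. The 42 lists were picked for holding no call, and most calls were higher, so the balance of their counts partly depends on that choice. In cell cycle, immediate early and circadian clock genes 0 of 37, 30 and 18 were called. *Cdkn2c*, an inhibitor of cyclin-dependent kinases, had 179.9, 208 and 244 in CTL and 219, 285 and 325 in DKO hearts (log2 change 0.37, standard error 0.09, adjusted p = 0.175). The nuclear receptor *Rorb* of the clock list had 54.8, 67.7 and 71.8 in CTL and 74.5, 86.8 and 108 in DKO hearts, with no overlap and a log2 change of 0.43 (standard error 0.09, adjusted p = 0.0647).

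The sham mice show how the same genes stood without overload. Sham and TAC comparisons share no array, and the authors normalized the sets apart, so log2 differences rather than intensities are set side by side. In sham hearts 48 probes (0.106%) were higher and 9 (0.0199%) lower in DKO, and 31 of the higher and 5 of the lower ones were also called after TAC. The shared probes made up 36 of 52 in the TAC and 36 of 57 in the sham comparison. All 52 had the same sign in sham, as had 52.5% of all probes. Over the probes called higher after TAC the median log2 change was 0.95 after TAC and 0.96 in sham, and over the 5 called lower it was -1.3 and -1.12. Over the probes called higher in sham the median was 0.98 in sham and 0.78 after TAC, and over those called lower in sham it was -0.81 after TAC. Sham CTL 4 stood apart from the other sham arrays on the first principal component, and without it 60 probes were higher and 17 lower, with 37 of the 52 shared.

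**Figure D5:**
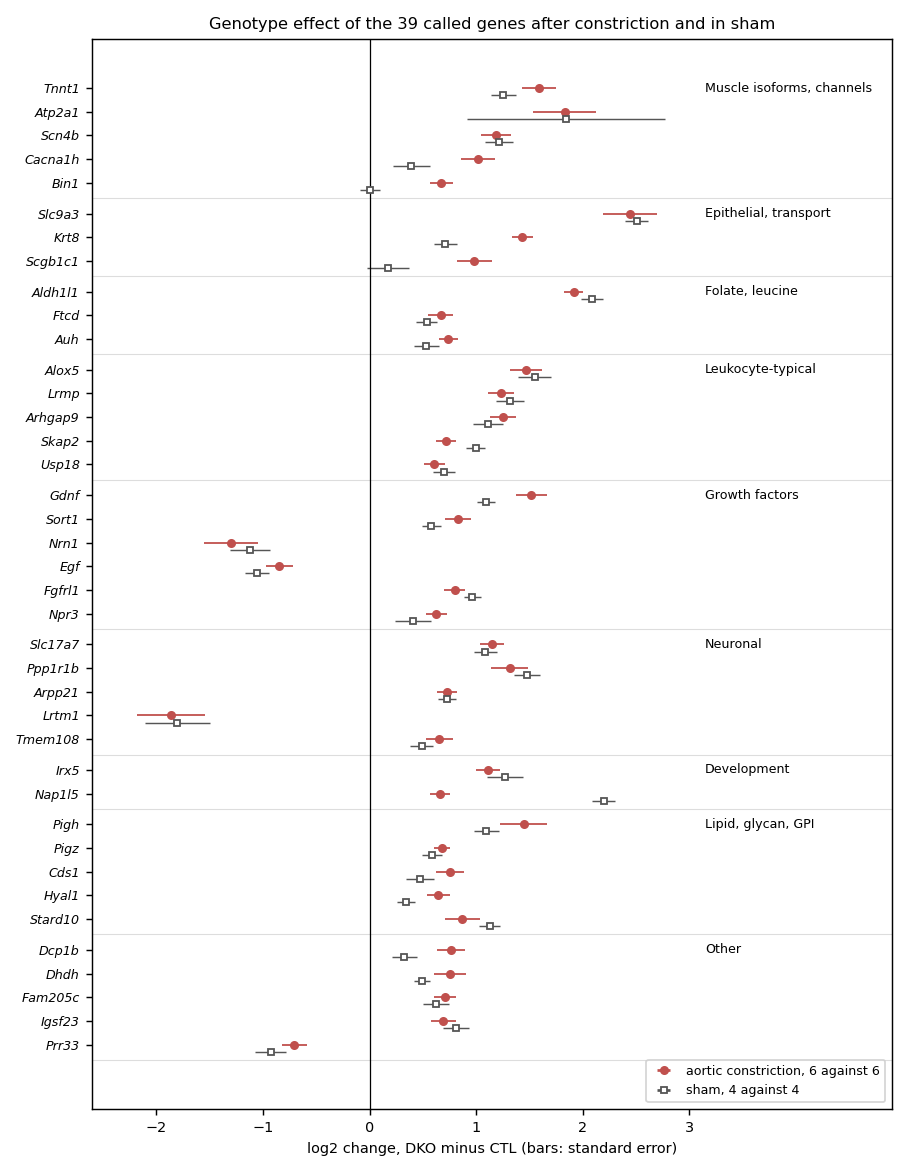
Log2 change of DKO minus CTL hearts (x axis, bars for the standard error) of the 39 called genes after TAC (red circles) and in sham mice (open squares), 1 probe per gene, grouped by function. The widest gaps are those of *Nap1l5* (0.66 after TAC, 2.2 in sham), *Scgb1c1* (0.98 and 0.17), *Krt8* (1.43 and 0.71), *Bin1* (0.67 and 0.00) and *Cacna1h* (1.02 and 0.39).

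Among the called genes, *Slc9a3* (2.45 after TAC and 2.51 in sham), *Aldh1l1* (1.92 and 2.08), *Tnnt1* (1.59 and 1.26) and *Scn4b* (1.19 and 1.22) had similar log2 changes in both settings. Those called after TAC but not in sham included *Cacna1h* (sham log2 change 0.39, adjusted p = 0.862), *Bin1* (0.00, 0.997), *Scgb1c1* (0.17, 0.95), *Auh* (0.53, 0.217) and *Atp2a1* (1.84, 0.867), the last with 2021 on Sham CTL 2 against 65.4 to 74.3 on the other sham CTL arrays. The difference between the 2 settings was tested with all 20 arrays normalized together. Of the 52 called probes it passed only for *Nap1l5* (-1.17, standard error 0.17, adjusted p = 0.0222). For *Krt8* the difference was 0.99 (adjusted p = 0.0644), and for *Bin1* 0.71 (adjusted p = 0.939).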

How the data were processed

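Total RNA of the ventricle was labelled with biotin and hybridised to Illumina bead chips, 1 array per mouse. The authors processed the arrays in GenomeStudio (version 2010.3 per the labels) and deposited linear intensities for 45281 probes. When sorted, 99.9% of the values were equal to within 0.2% among the 12 TAC arrays, which shows a quantile normalization of these arrays on their own. Background steps and detection p-values were not stated in the sources. The number of arrays limits the precision.

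Intensities were log2 transformed without a constant and fitted to all probes of the 12 arrays with limma 3.58.1 in R 4.3.3 (1 mean per genotype, empirical Bayes, 10 residual and 6.54 prior degrees of freedom), and p-values were adjusted over all probes after Benjamini and Hochberg. Calls need an adjusted p under 0.05 and a fold over 1.5, the thresholds in the study's methods. Of the probes, 34885 name 1 gene (19057 genes), 18 several and 10378 none, by the platform annotation with symbols updated through RefSeq. Lists use the brightest probe of a gene, and are described by counts and medians without a set test. The fit was tested on simulated data.

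Named genes were a fixed set of heart genes with *Aldh1l1*, *Krt8* and *Slc9a3*, all called members of the 60 lists, the 10 highest and 5 lowest called genes outside them, and, in lists without a call, the member with the smallest unadjusted p if under 0.01. Members, lists and rules were chosen with earlier results of these data known. Alternatives were a joint normalization of 20 arrays, a filter on dim probes, an added constant of 50, a trended robust prior and array weights. Others were a replicate block, left-out arrays and, for the lists, the mean of all probes of a gene. The array set as a block, the fits within each set and the sham fit without Sham CTL 4 were added after seeing the data.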

Additional observations from a re-analysis of the deposited data

Results flagged for a closer look

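In 174 groups of 6 arrays, 21 had an array far from the other 5, measured as the gap to its nearest neighbour over the range of the group and compared with the critical value for 6 values. Chance alone would give about 5% of groups. TAC CTL 4 was the array apart in 8 of them. It was high for *Myl4* (848.5 against 170.4 to 297 on the other CTL arrays, gap 0.654 of the range), *Sln* (91.5, 0.637), *Aldh1l1* (103, 0.731), *Krt8* (89.4, 0.65) and 2 probes of *Alox5* (148, 0.674, and 74.4, 0.626), and low for both probes of *Lrtm1* (2917, 0.638, and 1018, 0.717). TAC CTL 6 was low for *Nppa* (8300 against 24061 to 32486, 0.78), *Ccn2* (3772, 0.66) and *Cx3cl1* (124.5, 0.744) and high for *Ppp1r1b* (65.7, 0.709).

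In the DKO group TAC DKO 1 was low for *Myh6* (9274, 0.663) and *Atp2a2* (19696, 0.651) and high for *Lrmp* (394, 0.658) and *Cds1* (535, 0.695). TAC DKO 3 was high for *Myl7* (162, 0.764) and *Fzd7* (231, 0.788). TAC DKO 5 was high for *Arpp21* (137, 0.672) and low for the brightest probe of *Prr33* (249, 0.717), and TAC DKO 2 was low for *Nppa* (22211, 0.736). The genotype effect of *Nap1l5* differed between TAC and sham hearts in the test of that difference, by -1.17 on the log2 scale.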

How the results depend on the processing

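No called probe changed direction under any alternative, which is partly fixed because the probes were chosen on these same arrays. Among genes that were not called, *Nppb* (0.14), *Myh7* (-0.11), *Sln* (-0.04), *Ccn2* (0.04), *Atp2a2*, *Myl7* and *Dnmt3b* had the opposite sign in the second array set alone, *Dnmt3a* in the first, and *Dnmt3b* with the set as a block. Against 47 probes and 35 genes higher and 5 and 4 lower, an added constant of 50 gave 22 and 17 higher and 1 and 1 lower, and a trended robust prior 2 and 2 lower. Without a fold threshold 84 and 68 were higher and 18 and 14 lower. The first array set alone gave 18 and 13 higher, 0 and 0 lower and 11 lists with a call, and the second alone 2 and 1 lower, both with 6 arrays. Leaving out 1 array gave 37 to 52 probes and 28 to 39 genes higher, 3 to 11 probes and 3 to 8 genes lower, and 16 to 19 lists with a call, with 11 probes and 8 genes lower without TAC DKO 5, 8 probes lower without TAC DKO 6 and 3 without TAC CTL 3 or TAC CTL 5. Without Sham CTL 4, 17 sham probes were lower instead of 9. With the mean of all probes of a gene in place of the brightest probe, 13 lists held a call, against 18. Those of sodium and calcium channels, calcium cycling and interferon response were among the lists that lost their calls. Over all genes 21 were then called, against 34 higher and 3 lower by the brightest probe. Apart from the replicate block, all other counts stayed within 1.5 times. *Aldh1l1* and *Krt8* were called in every setting. *Atp2a1* was not called after the joint normalization or with the trended robust prior. *Dhdh*, *Nrn1*, *Stard10* and *Tmem108* were lost in 14 to 16 of 23, and *Usp18* without TAC CTL 2, TAC CTL 5, TAC DKO 3 or TAC DKO 4, *Npr3* without TAC CTL 5, TAC DKO 4 or TAC DKO 5 and *Igsf23* without TAC CTL 5.

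With the replicate number as a block, 60 probes and 45 genes were higher and 13 and 10 lower. Same-numbered arrays deviated from their group means with correlations of 0.35, 0.23, -0.19, 0.05, 0.12 and 0.39. The arrays numbered 1, 2, 5 and 6 shared an array set across genotypes, and those numbered 3 and 4 did not. These values therefore do not settle whether the numbers pair the mice. The CpG alternative gave no value, since that comparison was void.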
